A study of Mus musculus with 6 samples.

Results

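The genes described here are 6 markers of cortical layer 4, Rorb, Rspo1, Scnn1a, Whrn, Endou and Kcnh5, taken by name from the 32531 gene symbols in the count files. They and the other gene lists below were chosen with earlier results of these data known, so counts and medians of the lists are descriptions only. They were compared between RNA bound to tagged ribosomes (IP, n = 3) and the input RNA (n = 3) of the cerebral cortex of untreated adult mice. All 6 libraries came from the line Htr4-EGFP/Rpl10a (ES1299), in which EGFP fused to the ribosomal protein Rpl10a is made under control of the serotonin receptor gene Htr4. Polysomes carrying the tag were pulled out of the homogenate with antibodies against EGFP, a procedure called TRAP (translating ribosome affinity purification), so that IP is drawn from cells with Htr4 promoter activity and input from the whole tissue. The labels name the series for pyramidal neurons. They give no sex, no exact age and no wild-type or other-line control, and all data rest on this one line. They do not say whether the replicates of a group came from separate animals, so the p-values measure only the spread between these libraries, which may be technical.

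Layer 4 is the layer of the cortical sheet that receives most sensory input from the thalamus, and its excitatory neurons send their axons mainly to other layers of the same area. Rorb encodes a nuclear receptor of the ROR family that takes part in forming layer 4 neurons and their whisker-related barrels in mouse. It is the usual marker of the layer, although Rorb RNA is also found in some layer 5 neurons and in astrocytes of mouse cortex. The other 5 genes are of unlike function. Kcnh5 encodes the voltage-gated potassium channel subunit EAG2, Scnn1a the alpha subunit of the epithelial sodium channel, Rspo1 a secreted enhancer of Wnt signalling, Whrn the scaffold protein whirlin and Endou a uridylate-specific endoribonuclease.

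Reads on genes numbered 53147173 to 67559533 in IP libraries and 37696125 to 52360452 in input libraries, so that 3 reads were worth 0.0444 to 0.0564 CPM (counts per 1000000 gene reads) in IP and 0.0573 to 0.0796 CPM in input. Htr4 had 18.8 to 23.3 CPM in IP and 7.30 to 7.96 CPM in input. Among markers of glia, all 12 astrocyte, all 9 oligodendrocyte and all 8 microglial genes fell in IP. Of the 7 markers of pyramidal neurons, 2 rose and 0 fell, where 21.3% of all tested genes were called higher in IP and 23.4% lower. Without IP replicate 2, input replicate 1 or input replicate 2, 1 of these markers rose, and without IP replicate 3, 2 fell.

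The start regions of the members that fell are shown first, because those genes carry the difference between IP and input. RefSeq promoter sequences (GRCm38.p6, from 250 bases before to 50 after the transcription start) were held for 4 of the 6 members, among them Rorb, Kcnh5 and Rspo1 of those that fell. Rorb has a pair of starts on the minus strand of chromosome 19, at chr19:19111147-19111446 and, further downstream, at chr19:19001068-19001367. Kcnh5 starts in chr12:75177283-75177582 on the minus strand and Rspo1 in chr4:124986180-124986479 on the plus strand. In the sequences, given 5′ to 3′ along the gene, capitals mark each CG dinucleotide.
Rorb upstream start: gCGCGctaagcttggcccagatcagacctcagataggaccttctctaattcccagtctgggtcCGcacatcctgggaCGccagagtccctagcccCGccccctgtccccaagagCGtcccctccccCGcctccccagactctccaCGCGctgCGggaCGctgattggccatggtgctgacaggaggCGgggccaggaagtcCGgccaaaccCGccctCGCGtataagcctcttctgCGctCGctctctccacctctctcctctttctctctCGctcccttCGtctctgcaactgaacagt
Rorb downstream start: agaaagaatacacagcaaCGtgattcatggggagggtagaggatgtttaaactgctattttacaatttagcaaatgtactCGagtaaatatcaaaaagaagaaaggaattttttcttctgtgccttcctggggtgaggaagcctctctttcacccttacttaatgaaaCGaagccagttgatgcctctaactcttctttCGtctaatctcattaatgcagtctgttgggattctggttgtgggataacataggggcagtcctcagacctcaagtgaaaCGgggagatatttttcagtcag
Kcnh5: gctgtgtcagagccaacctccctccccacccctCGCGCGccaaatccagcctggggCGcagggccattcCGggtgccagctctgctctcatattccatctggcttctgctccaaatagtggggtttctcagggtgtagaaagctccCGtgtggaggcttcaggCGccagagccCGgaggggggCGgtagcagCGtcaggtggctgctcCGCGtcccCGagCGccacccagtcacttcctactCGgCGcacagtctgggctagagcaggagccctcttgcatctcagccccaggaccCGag
Rspo1: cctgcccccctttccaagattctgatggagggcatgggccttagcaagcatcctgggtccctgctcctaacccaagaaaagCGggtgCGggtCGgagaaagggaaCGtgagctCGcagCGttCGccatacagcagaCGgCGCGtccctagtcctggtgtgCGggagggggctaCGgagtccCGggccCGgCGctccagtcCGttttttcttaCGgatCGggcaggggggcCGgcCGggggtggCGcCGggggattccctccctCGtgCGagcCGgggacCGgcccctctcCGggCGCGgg

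The upstream start of Rorb held 20 CG dinucleotides and the downstream one 5, against a median of 7 over all 32851 promoters of the table. Of all promoters, 26.5% held as many CG as the upstream Rorb start or more, and 43.6% held as few as the downstream one or fewer. Kcnh5 held 17 and Rspo1 29, as did Whrn, a member that did not fall. The motif AGGTCA, the core that ROR receptors bind, was searched for on both strands and was found in 0 of the 5 member promoters, against 16.3% of all promoters. The counts do not tell reads of the 2 Rorb starts apart, since the files hold 1 value per gene.

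Of the 6 members, 4 fell in IP and 0 rose (edgeR's quasi-likelihood test, with p adjusted by Benjamini-Hochberg over 16506 tested genes and called under 0.05). Of all tested genes, 23.4% were called lower and 21.3% higher. The median log2 fold change of the members was -1.22, against -0.015 for all tested genes. As the members were chosen with earlier results known, these values do not test the set. In the 4 that fell, every IP library lay below every input library in CPM of gene reads. On CPM with the TMM scaling used in the test, 29.5% of tested genes had every IP library below every input library. On the same scale 26.5% had every IP library above every input library. In the other two, Scnn1a and Whrn, the groups overlapped. For a single gene, 3 against 3 libraries give a two-sided exact permutation p of no less than 0.1. In bulk RNA, fewer cells of a type and less of a gene's RNA per cell cannot be told apart. Since IP holds ribosome-bound RNA and input does not select for it, a smaller share of a gene's RNA on ribosomes cannot be told apart from these either.

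**Figure D1:**
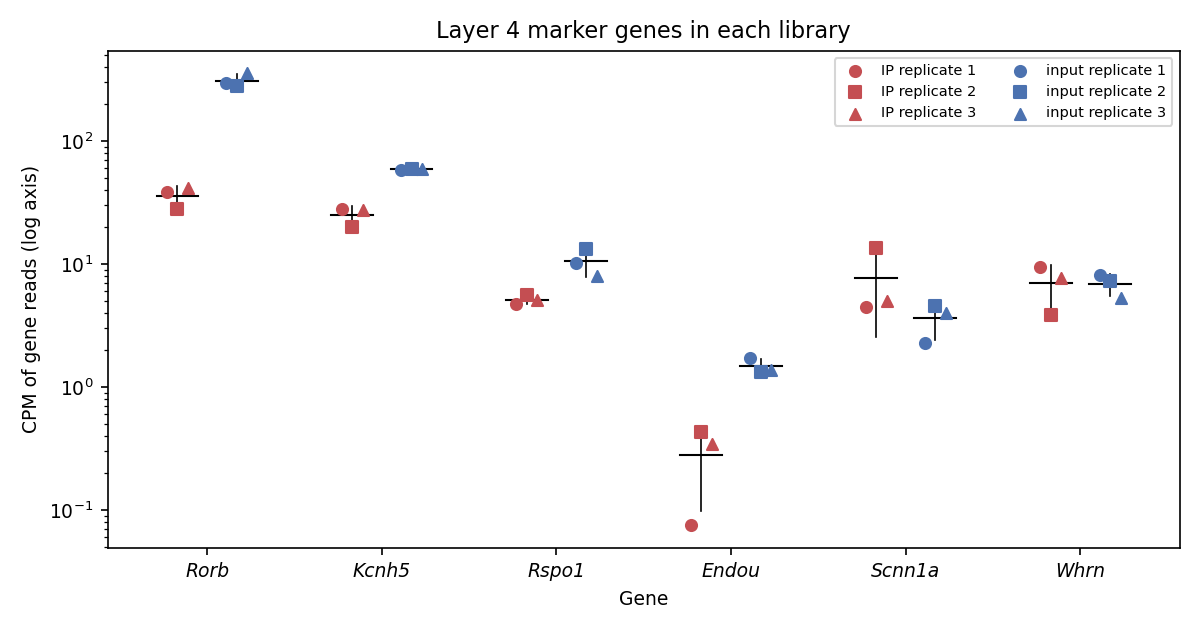
CPM of gene reads (log axis) of the 6 layer 4 marker genes in each IP (red, left) and input (blue, right) library, with the mean (horizontal line) and SD (vertical line) of 3 libraries. For Rorb, Kcnh5, Rspo1 and Endou the IP points lie below all input points, and Scnn1a has a single high IP library, replicate 2, at 13.6 CPM.

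Rorb, the transcription factor gene, fell furthest of the 6. It had 38.5, 28.2 and 41.5 CPM in IP replicates 1 to 3, against 299, 279 and 356 CPM in input replicates 1 to 3. Even the highest IP library thus held far less Rorb than the lowest input library, on 1905 to 2781 reads in IP and 11278 to 18618 in input. The log2 fold change was -3.21 (SE 0.16, adjusted p = 6.6e-08), 9.23-fold lower in IP. Within lanes 1, 2 and 3 of the sequencer, each of which held 1 IP and 1 input library, the log2 ratio was -2.96, -3.30 and -3.10. Of all tested genes, 7.15% had a lower log2 fold change. The gene (ENSMUSG00000036192.15) spans bases 18930605 to 19111196 of chromosome 19 (GRCm38, minus strand), and its merged exons measure 11076 bases.

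Rorb made up 39.3 to 47.6% of the summed CPM of the 6 members in IP and 76.5 to 81.9% in input. The summed CPM was 71.7 to 87.1 in IP and 364 to 434 in input. Without Rorb, the other 5 members summed to 43.5 to 46.9 CPM in IP and 78.4 to 85.8 CPM in input. Kcnh5 held that difference: without it as well, the other 4 members summed to 18.7, 23.5 and 18.1 CPM in IP replicates 1 to 3 and 22.4, 26.6 and 18.7 CPM in input replicates 1 to 3, and the groups overlapped.

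Kcnh5, the EAG2 channel gene, had 28.1, 20.0 and 27.5 CPM in IP, against 58.0, 59.2 and 59.6 CPM in input. The input libraries were close together, with an SD of 0.861 CPM around a mean of 59.0, while IP averaged 25.2 ± 4.53 CPM (SD, n = 3 each). The log2 fold change was -1.32 (SE 0.14, adjusted p = 2.2e-05). IP replicate 2 was the lowest for Kcnh5 as it was for Rorb, and the ratio within lane 2, -1.57 on the log2 scale, was further from 0 than in lane 1 (-1.04) and lane 3 (-1.12). Kcnh5 (ENSMUSG00000034402.3) lies on the minus strand of chromosome 12 at bases 74897220 to 75177332.

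Rspo1, which encodes the Wnt enhancer R-spondin 1, had 4.72, 5.61 and 5.10 CPM in IP, against 10.3, 13.4 and 8.0 CPM in input. Here the IP libraries were the closer group, and the lowest input library was still above the highest IP library. The log2 fold change was -1.12 (SE 0.22, adjusted p = 0.0015), with -1.12, -1.26 and -0.65 within lanes 1, 2 and 3. Rspo1 (ENSMUSG00000028871.7) lies on the plus strand of chromosome 4 at bases 124986430 to 125009099.

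Endou, the endoribonuclease gene, was the scarcest member. It had 4, 29 and 23 reads in IP replicates 1 to 3, against 65, 67 and 72 reads in input replicates 1 to 3, which is 0.0753, 0.429 and 0.343 CPM in IP and 1.72, 1.33 and 1.38 CPM in input. All IP values were low, and IP replicate 1 was near the worth of 3 reads. The log2 fold change was -2.45 (SE 0.71, adjusted p = 0.014). Over the 6 fits that each leave out 1 library the adjusted p ran up to 0.058, reached without input replicate 1, where the log2 fold change was -2.31 and the call ended. Within lane 1, where the 4 reads fall, the log2 ratio was -4.52, against -1.63 and -2.0 within lanes 2 and 3. Endou (ENSMUSG00000022468.12) lies on the minus strand of chromosome 15 at bases 97711015 to 97731339.

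Scnn1a, the sodium channel subunit gene, had a higher mean in IP and did not pass the test. It had 4.48, 13.6 and 4.99 CPM in IP replicates 1 to 3, against 2.28, 4.56 and 4.01 CPM in input replicates 1 to 3. A single library, IP replicate 2, held most of the difference, and the lowest IP library was below the highest input library. The log2 fold change was 0.99 (SE 0.42, adjusted p = 0.074), and it was 0.30 (adjusted p = 0.51) without IP replicate 2. With the replicate number as a block, Scnn1a passed as higher in IP (log2 fold change 0.86, SE 0.30, adjusted p = 0.033), in a fit that called 21.9% of tested genes higher. The log2 ratio was 0.97, 1.57 and 0.32 within lanes 1, 2 and 3. Scnn1a (ENSMUSG00000030340.16) lies on the plus strand of chromosome 6 at bases 125320659 to 125344943.

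The summed level of 6 markers of hippocampal neurons was also highest in IP replicate 2. Among the input libraries, the sum of these markers was highest in replicate 2 too, as Scnn1a was (4.56 CPM). This list was chosen after the values of Scnn1a had been seen. Its summed CPM was 83.2 to 261 in IP and 40.3 to 64.5 in input, and 3 of its genes rose and 1 fell (0 fell without input replicate 3). In the main fit 21.3% of all tested genes were called higher and 23.4% lower. The gene that fell was the cation channel gene Trpc6, with 3.73, 5.52 and 3.13 CPM in IP replicates 1 to 3, against 6.18, 8.45 and 8.52 CPM in input replicates 1 to 3. Prox1, a transcription factor gene, had 82.0, 199 and 70.6 CPM in IP replicates 1 to 3, against 38.6, 49.6 and 27.5 CPM in input replicates 1 to 3. In IP replicate 2, Prox1 thus held 199 of the summed 261 CPM, so the sum mostly follows this gene. Dsp, the desmoplakin gene, had 0.583 and 13.9 CPM in IP replicates 1 and 2 and was at 0 in IP replicate 3, against 0.239, 1.15 and 0 CPM in input replicates 1 to 3, and did not pass (adjusted p = 0.12). The part of hippocampal RNA in the Scnn1a values was not tested. How many of all genes had their highest value in IP replicate 2 is not given here.

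Whrn, the whirlin gene, had 9.43, 3.88 and 7.65 CPM in IP, against 8.14, 7.24 and 5.35 CPM in input. IP held both the highest and the lowest library. The means, 6.98 ± 2.83 CPM in IP and 6.91 ± 1.43 CPM in input (SD, n = 3 each), differed by less than the spread between replicates (log2 fold change -0.08, SE 0.30, adjusted p = 0.86). The log2 ratio was 0.21, -0.90 and 0.52 within lanes 1, 2 and 3, so the lanes did not share a direction. Whrn (ENSMUSG00000039137.18) lies on the minus strand of chromosome 4 at bases 63414910 to 63495991. For none of the 6 members does another gene of GENCODE M21 share an exonic base, although the annotation behind the counts is not given in the sources used here.

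**Figure D2:**
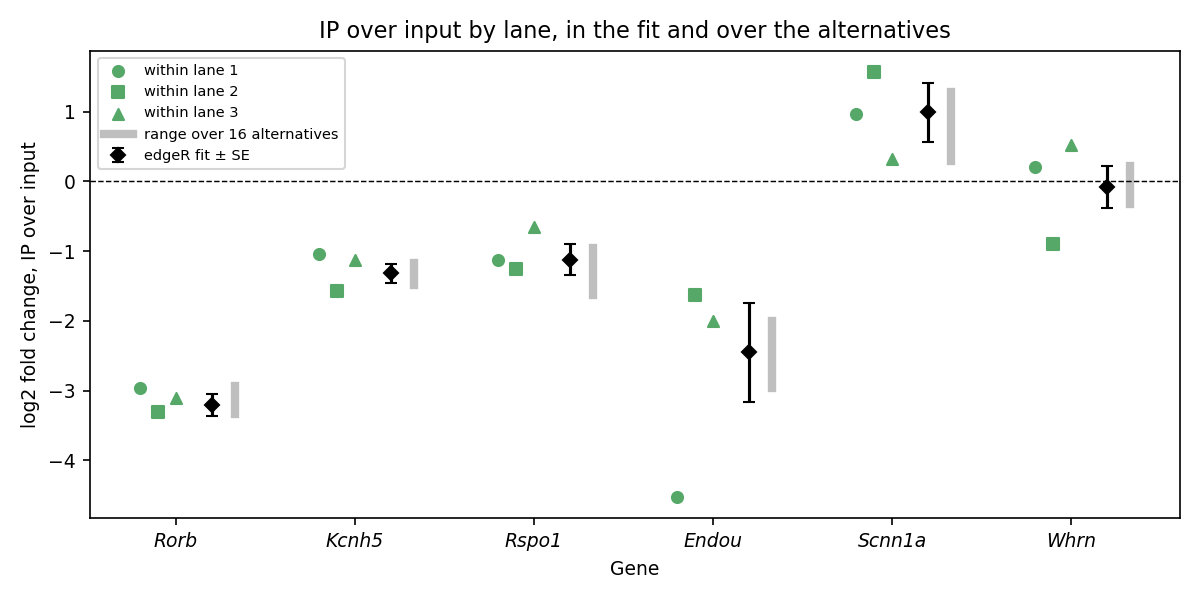
Log2 fold change of each layer 4 marker gene, IP over input: the ratio of CPM within each lane (green), the edgeR fit with its SE (black) and the range over 16 alternative fits (grey bar). Rorb, Kcnh5, Rspo1 and Endou are below 0 at every point, Scnn1a is above 0 at every point and Whrn lies on both sides.

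Scaled by exon length, the order of the levels differed between the groups. Per kilobase of merged exon, the level in IP was 6.22 ± 1.12 CPM for Kcnh5, 3.26 ± 0.629 for Rorb, 2.65 ± 0.230 for Rspo1, 1.86 ± 1.24 for Scnn1a, 0.952 ± 0.386 for Whrn and 0.103 ± 0.0672 for Endou (SD, n = 3). In input it was 28.1 ± 3.60 CPM per kilobase for Rorb, 14.5 ± 0.212 for Kcnh5, 5.46 ± 1.40 for Rspo1, 0.942 ± 0.194 for Whrn, 0.876 ± 0.288 for Scnn1a and 0.538 ± 0.0788 for Endou. On this scale Kcnh5 was above Rorb in IP and below it in input, and no library of either group broke that order. In CPM without length scaling, Rorb was above Kcnh5 in every library of both groups. The exon lengths are those of GENCODE M21, which may not be the annotation behind the counts. Whrn and Scnn1a were within their spread of each other in both groups, and so were Rspo1 and Scnn1a, and Rorb and Rspo1, in IP.

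Relatives and partners of the members moved in both directions. The ROR receptor gene Rora, which is also expressed in layer 4 and other neurons, had 163, 157 and 197 CPM in IP, against 330, 314 and 339 CPM in input (log2 fold change -1.02, SE 0.11, adjusted p = 2.0e-05). Rorb CPM divided by Rora CPM, with no length scaling, was 0.237, 0.179 and 0.211 in IP replicates 1 to 3, against 0.906, 0.886 and 1.05 in input replicates 1 to 3, so Rorb fell further than Rora in every lane.

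Of the 7 other genes of the EAG, ERG and ELK potassium channel family, 3 fell, 1 rose and 3 did not pass. Kcnh1, which encodes the closest relative of EAG2, had 58.6 ± 1.52 CPM in IP and 78.0 ± 6.44 CPM in input (log2 fold change -0.51, adjusted p = 0.0022). Kcnh5 CPM divided by Kcnh1 CPM was 0.489, 0.332 and 0.476 in IP replicates 1 to 3, against 0.807, 0.766 and 0.704 in input replicates 1 to 3. The ELK gene Kcnh4 fell by 1.34 on the log2 scale (adjusted p = 0.0083) and the ERG gene Kcnh7 fell by 0.69 (adjusted p = 0.00072), while the ELK gene Kcnh3 rose to 32.9 ± 1.83 CPM in IP, against 21 ± 3.15 CPM in input (log2 fold change 0.56, adjusted p = 0.0069). The family held genes that fell and a gene that rose, where 23.4% of all tested genes were called lower and 21.3% higher.

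R-spondins act by way of LGR receptors, which keep the ubiquitin ligases ZNRF3 and RNF43 from clearing Wnt receptors. The R-spondin genes did not move as Rspo1 did. Rspo3 had 25 ± 2.89 CPM in IP and 15.2 ± 1.22 CPM in input (log2 fold change 0.63, adjusted p = 0.0047). Rspo2 had 14.2 ± 3.29 CPM in IP and 8.51 ± 2.93 CPM in input (log2 fold change 0.65, adjusted p = 0.051). Rspo4 was called higher (adjusted p = 0.017) on 20, 27 and 21 reads in IP replicates 1 to 3 and 0, 3 and 0 reads in input replicates 1 to 3, a ratio of read shares of 17 with an exact 95% counting interval of 5.56 to 84.3. The receptor gene Lgr4 fell to 15.3 ± 1.39 CPM in IP, against 23.5 ± 1.03 CPM in input (log2 fold change -0.71, adjusted p = 0.0014). Both ligase genes fell, Znrf3 with a log2 fold change of -0.88 (adjusted p = 0.0012) and Rnf43 with -2.08 (adjusted p = 0.011). Lgr5 and Lgr6 did not pass (log2 fold changes -0.58 and -0.71). In the main fit 3 of these 8 genes fell and 2 rose, where 23.4% of all tested genes were called lower and 21.3% higher. Without input replicate 3, 1 gene of this pathway was called higher in place of 2.

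The sodium channel needs the beta and gamma subunits beside the alpha subunit for full current. Scnn1b had 3, 20 and 3 reads in IP replicates 1 to 3 and 0 reads in each input library, and Scnn1g had 5, 35 and 91 reads in IP replicates 1 to 3 and 4, 3 and 9 reads in input replicates 1 to 3. Both were left out of the test by the filter on low counts. Scnn1b, like Scnn1a, was highest in IP replicate 2, whereas Scnn1g was highest in IP replicate 3. Nedd4l, whose ubiquitin ligase removes the channel from the membrane, had 426 ± 72.2 CPM in IP and 400 ± 29.3 CPM in input (log2 fold change -0.01, adjusted p = 0.97). The kinase gene Sgk1 and the protease gene Furin did not pass either (log2 fold changes -0.30 and -0.03).

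Of the 8 genes listed for whirlin's partners in the Usher and stereocilia complexes, 6 were tested, of which 3 fell and 1 rose. Among all tested genes, 23.4% were called lower and 21.3% higher. Adgrv1, an adhesion receptor gene, had 0.0831 ± 0.0434 CPM in IP and 1.36 ± 0.487 CPM in input (log2 fold change -4.08, adjusted p = 0.0012). Eps8, an actin regulator gene, had 8.21 ± 1.97 CPM in IP and 18.9 ± 1.49 CPM in input (log2 fold change -1.30, adjusted p = 0.00022). The synaptic scaffold gene Cask fell (log2 fold change -0.53, adjusted p = 0.00037) and its relative Mpp1 rose (log2 fold change 0.57, adjusted p = 0.0014). Pdzd7 and Myo7a did not pass.

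**Figure D3:**
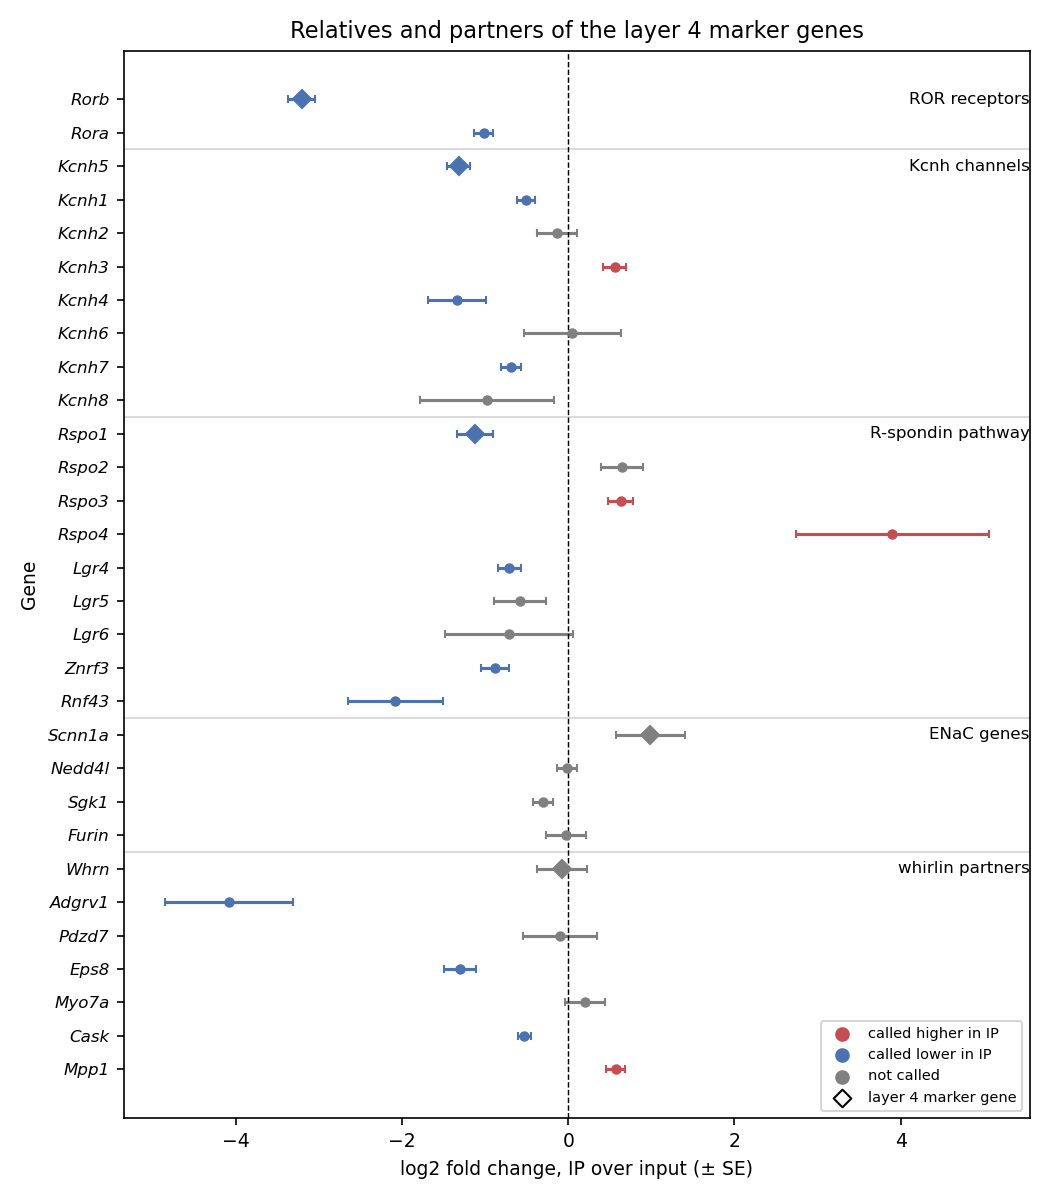
Log2 fold change with SE, IP over input, of the layer 4 marker genes (diamonds) and of their tested relatives and partners (circles), by family. Rorb (-3.21) lies lower than Rora (-1.02), and Rspo3 and Rspo4 lie above 0 where Rspo1 lies below it (the fitted value of Rspo4 rests on 3 input reads).

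Of 7 other genes of layer 4 or of the upper layers with layer 4, 5 fell and 1 rose (median log2 fold change -0.57, range -1.02 to 1.09). Over all tested genes, 23.4% were called lower and 21.3% higher (median -0.015). Besides Rora, those that fell were the nuclear receptor gene Nr2f1 (-0.77), the netrin receptor gene Unc5d (-0.86) and the homeobox genes Cux1 (-0.57) and Cux2 (-0.47). For Nr2f1 and Cux2 the IP and input libraries overlapped in CPM of gene reads. The call of Cux1 ended with an offset for gene length and GC content (log2 fold change -0.19, adjusted p = 0.14), and 4 genes of the list in place of 5 were lower without IP replicate 1 or without input replicate 3. Btbd3, which shapes dendrites of layer 4 neurons in mouse, rose to 591 ± 104 CPM in IP, against 288 ± 7.54 CPM in input (log2 fold change 0.94, adjusted p = 6.6e-05). The protocadherin gene Pcdh20 had 35.7, 55.8 and 9.87 CPM in IP replicates 1 to 3, against 15.2, 17.2 and 12.4 CPM in input replicates 1 to 3 (log2 fold change 1.09, adjusted p = 0.057), and like Scnn1a it was highest in IP replicate 2.

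Other layer lists had higher medians than the 6 members (-1.22), but single genes overlapped with them. Of 12 layer 2/3 genes, 6 fell and 2 rose (median -0.17), where 23.4% of all tested genes were called lower and 21.3% higher. Stard8 (-1.54) and Inhba (-1.52) fell further than Kcnh5 (-1.32) and Rspo1 (-1.12), while Wfs1 (0.78) and Otof (0.88) rose. Cux1 and Cux2, which stand in the list of other layer 4 genes too, are among the 6 that fell. Of 8 layer 5 intratelencephalic genes, whose neurons project within the cortex, 1 fell and 2 rose (median -0.27). Of 11 layer 5 pyramidal tract genes, whose neurons project below the cortex, 10 rose and 0 fell (median 0.96, range 0.65 to 2.07), among them Fezf2 with 141 ± 10.2 CPM in IP and 36.9 ± 2.46 CPM in input. Deptor, the intratelencephalic gene that fell, had 57.6 ± 8.17 CPM in IP and 106 ± 6.04 CPM in input. The small counts moved when a library was left out: without input replicate 3, 0 layer 2/3 genes were higher, without input replicate 2 it was 1, and without IP replicate 1 or 3, 2 intratelencephalic genes were lower. Leaving out any library but IP replicate 1 left 1 intratelencephalic gene higher in place of 2. The lists were not tested against one another.

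The fall of Rorb, at -3.21 on the log2 scale, lay inside the range of each list of glial and endothelial markers. So did that of Endou (-2.45), and Kcnh5 (-1.32) lay inside the astrocyte and microglial ranges, so wide ranges set few genes apart. The log2 fold changes ran from -4.51 to -1.29 for the 12 astrocyte markers (median -3.09), from -4.66 to -1.61 for oligodendrocyte, from -6.00 to -1.24 for microglial and from -9.05 to -2.24 for endothelial markers. In the layer lists other than the 6 members, no gene was below -2.27. The summed CPM of the astrocyte list was 985 to 1170 in IP and 4460 to 4800 in input, and none of its genes was at 0 in an IP library. Oligodendrocyte markers summed to 170 to 190 CPM in IP and 1350 to 1430 CPM in input (9 of 9 fell, median -3.68). Microglial markers summed to 4.35 to 6.13 CPM in IP and 53.9 to 55.7 CPM in input (8 of 8 fell, median -4.14), with C1qa at 0 in 2 IP libraries. Endothelial markers summed to 0.253 to 1.15 CPM in IP and 4.19 to 7.73 CPM in input (4 of 5 tested fell, and 1 without input replicate 2), with Tek at 0 in all IP libraries. The part of glial RNA in the difference of Rorb and of the other members was not tested.

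**Figure D4:**
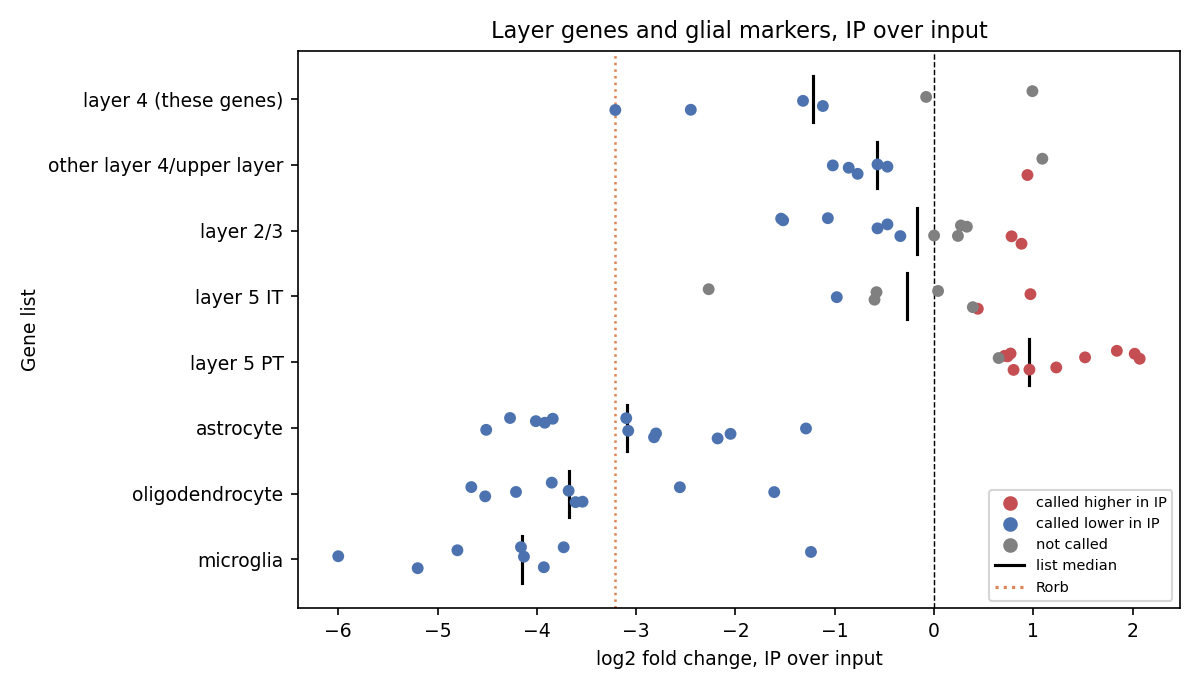
Log2 fold change, IP over input, of each tested gene (points, coloured by call) in the layer lists and the glial marker lists, with the median of each list (black line) and the value of Rorb (dotted line). Rorb lies within the range of the astrocyte, oligodendrocyte and microglial markers alike, as Endou does. Rorb also lies below every other gene of the layer lists.

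By distance between mean-centred log2 CPM profiles over the 6 libraries, the genes near Rorb, among 9672 with a mean of at least 5 CPM, included Qk, Slc7a2 and Ppp1r3c (distances 0.382 to 0.494). Qk encodes an RNA-binding protein of glia, Slc7a2 an amino acid transporter and Ppp1r3c a glycogen-targeting phosphatase subunit. Qk had 80.4 ± 5.34 CPM in IP and 668 ± 16.4 CPM in input, a log2 fold change of -3.15 (SE 0.09). Slc7a2 had 5.37 ± 0.772 CPM in IP and 49.2 ± 2.56 CPM in input (log2 fold change -3.29, SE 0.15). Ppp1r3c had 3.58 ± 0.487 CPM in IP and 31.2 ± 3.08 CPM in input (log2 fold change -3.22, SE 0.17). Fold changes near that of Rorb follow from the choice by distance. None of these 3 genes is in a layer list used here.

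The genes nearest to Scnn1a were Cyp7b1, Slc44a5, Ap2a1, Ehd1 and Lace1, at larger distances (0.733 to 0.818). All 5 had their highest value in IP replicate 2, a trait that the choice by likeness to Scnn1a favours. Slc44a5, a choline transporter-like gene, had 18.6, 46.3 and 16.3 CPM in IP, against 12.6, 14.6 and 11.8 CPM in input (log2 fold change 0.96, SE 0.32, adjusted p = 0.029). Cyp7b1, an oxysterol hydroxylase gene, had 12.5, 22.7 and 12.7 CPM in IP, against 6.61, 8.63 and 7.85 CPM in input (log2 fold change 0.96, SE 0.24, adjusted p = 0.0070). The other three did not pass. Likeness over 6 libraries in 2 groups is a description of these profiles.

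**Figure D5:**
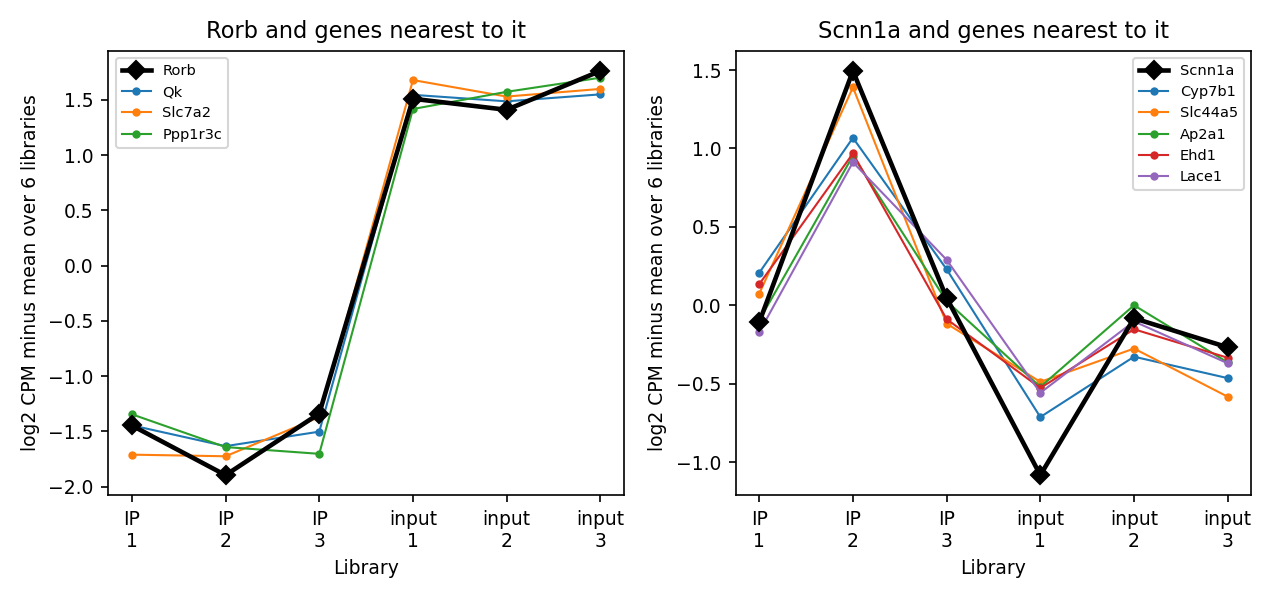
Log2 CPM minus the mean over the 6 libraries for Rorb (left) and Scnn1a (right), each in black with genes nearest to it in colour; IP libraries stand left of input libraries. Rorb and its neighbours form a low IP and a high input plateau, while Scnn1a and its neighbours peak in IP replicate 2. The neighbours were chosen for this likeness.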

How the data were processed

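For each of 3 IP and 3 input libraries the authors deposited raw read counts by gene symbol, not normalized. Reads were aligned with STAR 2.0.0e to mm10 and counted with HTSeq, per the submitters' processing notes. No HTSeq version, strand setting or annotation is given in the sources used here. Non-gene rows were dropped: reads outside genes made up 8.60 to 8.92% of listed reads in IP and 16.7 to 18.1% in input, ambiguous reads 1.77 to 1.91% in IP and 8.12 to 9.83% in input, multiply aligned reads 32.9 to 35.7% in IP and 21.1 to 23.3% in input, and a row called unknown held at most 2 reads.

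Levels are CPM of gene reads, and groups were compared by edgeR's quasi-likelihood test (version 4.0.16, in R 4.3.3) with TMM scaling, filterByExpr and a group term, two-sided, with the Benjamini-Hochberg adjustment over all 16506 tested genes at 0.05. CPM ratios and fitted fold changes therefore differ slightly. SEs come from the test statistic, and SDs are over 3 libraries. Intervals and floors cover counting error only. No 2 libraries were copies (chi-square per degree of freedom at least 22.0 within groups). The script was tested on simulated counts. Per the labels, libraries with the same replicate number ran on the same lane. Deviations of same-numbered libraries correlated at 0.087, 0.061 and 0.043, and of others at -0.057 to 0.001. All IP libraries carry one index and all inputs another, so index and group cannot be told apart.

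Alternatives were DESeq2 1.42.0, limma-voom (limma 3.58.1), RLE, total counts, TMM without AK140265 and Rn45s, other filters, the replicate block, leave-one-out fits and an offset for exonic length and GC (GENCODE M21, values for 87.8% of tested genes). The members and gene lists were chosen with earlier results of these data known. All members are named, list members may be named, and likeness takes the 5 nearest genes at a mean of at least 5 CPM, without predicted or accession-style symbols (prior count 2). The thalamic list (3 rose and 4 fell of 8) and the GABAergic interneuron list (3 rose and 1 fell of 8) are not described further. Some genes are not reported here.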

Additional observations from a re-analysis of the deposited data

How the results depend on the processing

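Over 16 alternative fits, Rorb (log2 fold change -3.33 to -2.94), Kcnh5 (-1.48 to -1.17) and Rspo1 (-1.63 to -0.95) kept their direction and their call in all. Endou kept both in 15 (-2.96 to -2.0), the exception being without input replicate 1 (-2.31, adjusted p = 0.058). Leaving out 1 library at a time gave -3.33 to -3.05 for Rorb, -1.39 to -1.17 for Kcnh5, -1.26 to -0.95 for Rspo1, -2.86 to -2.0 for Endou, 0.30 to 1.28 for Scnn1a and -0.33 to 0.22 for Whrn. Scnn1a was called higher with no filter (1.01, adjusted p = 0.029), with the replicate block (0.86, adjusted p = 0.033), in DESeq2 (0.98, adjusted p = 0.049), without IP replicate 1 (adjusted p = 0.022) and without IP replicate 3 (adjusted p = 0.032), so that 1 member was higher in those fits where 0 were in the main one. Its adjusted p ran from 0.022 to 0.51 over the alternatives. Whrn changed sign with total counts (0.01), without IP replicate 2 (0.22) and without input replicate 1 (0.07), and was called in none of the fits. The length and GC offset shifted the median of all genes by -0.13, and by -0.16 with the block. The cause of these changes was not tested. The replicate block changed the call of no other member.

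Counts of genes in short lists moved by a few. Sodium channel genes were 0 or 1 in each direction. Layer 5 intratelencephalic genes were 1 to 3 lower and 1 to 2 higher, layer 2/3 genes 0 to 3 higher, other layer 4 genes 4 to 5 lower and 1 to 2 higher, and R-spondin pathway genes 1 to 3 higher. Pyramidal markers were 0 to 2 lower and 1 to 3 higher, interneuron markers 1 to 2 lower, hippocampal markers 0 to 1 lower, and endothelial markers 0 (at least 1 CPM in 3 libraries) to 5 lower. Over all genes, 3109 to 4697 were lower and 2620 to 4255 higher. Depth limits Endou, with 4 to 29 reads in IP libraries, and the beta and gamma sodium channel subunit genes.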
